A study of Homo sapiens with 9 samples.

Results

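The genes described here are 36 human genes whose products build the centromere and the kinetochore, out of 36601 genes counted. They were chosen by name, and no expression threshold entered the choice. The genes and the classes used below were, however, chosen with earlier results of these data known. Each of the 36 symbols matched 1 Ensembl gene ID, and all 36 passed the filter on low counts, after which 15560 genes were tested. The lowest count of any of them in any library was 36, for OIP5. Expression was measured by RNA-seq of bulk LX2 cells. LX2 is a human stellate line that was immortalised in culture, and stellate cells are the main matrix-forming cells of the injured liver. The cells carried no stated genetic change and were transfected with 20 nM siRNA and harvested after 7 days. In the siYAP group the siRNA targeted YAP (gene YAP1), in the siTAZ group it targeted TAZ (gene WWTR1), and the siNT group received non-targeting siRNA; each group had 3 libraries. All groups therefore share the transfection, the serum and the line, which is 1 line in culture, and the siRNA sequences are not given in the sources used here. Nothing in the labels says whether the libraries of a group came from separate cultures, so p-values measure the spread between these libraries, which may be technical.

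The kinetochore is the protein assembly that ties a chromosome to spindle microtubules at mitosis. It is built on nucleosomes that hold the histone H3 variant CENP-A. A constitutive centromere-associated network (the inner kinetochore) sits on them, the MIS12, KNL1 and NDC80 complexes (the outer kinetochore) bind microtubules, and checkpoint proteins on the outer layer hold back anaphase until every chromosome is attached. Many of these genes are transcribed mainly in the S, G2 and M phases and are silenced in resting cells by the DREAM complex, which binds CHR and E2F-type elements near their start sites, where CCAAT boxes, the sites of the activator NF-Y, are also common. Others are transcribed throughout the cycle. From general knowledge, 27 of the genes were placed in the cell-cycle-regulated class, 7 (CENPC, CENPP, MIS12, NSL1, PMF1, BUB3 and SKA2) in the constitutive class, and CENPO and CENPQ in neither. YAP and TAZ, which the Hippo kinases restrain, bind no DNA themselves and activate genes mainly through TEAD factors.

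The libraries held 16498508 to 18752805 counts in genes. Levels are given as CPM (a gene's share of the counted reads, scaled to a common library size with the TMM factors), and a count of 3 in a library corresponded to 0.157 to 0.177 CPM. YAP1 averaged 26.3 ± 1.49 CPM in siYAP cells and 209 ± 4.11 CPM in siNT cells, and WWTR1 averaged 9.54 ± 0.917 CPM in siTAZ cells and 62.0 ± 5.50 CPM in siNT cells (SD, n = 3 each), so each targeted transcript was lowest in its own group. Reads outside annotated features made up 6.01 to 7.49% in siYAP, 5.53 to 5.63% in siTAZ and 4.73 to 5.13% in siNT libraries, and the part of this difference in the results was not tested. YAP1 was also lower in siTAZ than in siNT cells, by a log2 fold change of -0.30 (edgeR adjusted p = 2.42e-08), and WWTR1 was higher in siYAP than in siNT cells, by 0.29 (edgeR adjusted p = 6.31e-05). Of 10 stellate or fibroblast markers 8 passed the filter; their summed level was 4975 to 5056 CPM in siYAP, 14060 to 14100 CPM in siTAZ and 9541 to 9643 CPM in siNT libraries. Of these 8, 5 were lower and 3 higher in siYAP, and 2 lower and 5 higher in siTAZ, against siNT, while LRAT, a vitamin A storage enzyme of stellate cells, had no count in any library and DES was below the filter. The summed level of 6 hepatocyte markers was 12.8 to 16.0 CPM in siYAP, 0.704 to 1.96 CPM in siTAZ and 1.78 to 2.004 CPM in siNT libraries. Nearly all of it was 1 gene, SERPINA1, at a mean of 14.7 CPM in siYAP, 1.47 CPM in siTAZ and 1.885 CPM in siNT cells; APOA2 and TTR were at 0 throughout, and ALB, APOA1 and CYP3A4 averaged under 0.1 CPM in each group. Leukocyte markers summed to 13.7 to 15.2, 9.39 to 12.1 and 12.5 to 13.9 CPM in siYAP, siTAZ and siNT libraries, endothelial markers to 113 to 128, 18.4 to 19.7 and 48.2 to 54.1 CPM, and epithelial markers to 79.9 to 83.1, 68.5 to 72.5 and 50.2 to 52.6 CPM. Single genes carried most of these sums, CD14 the first, TIE1 the second and SOX9 the third. Members of a list went apart: in siYAP against siNT TIE1, PECAM1 and KDR were higher while CDH5 and VWF were lower.

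Knockdown of YAP was followed by a fall of most centromere and kinetochore transcripts. Of the 36 genes 32 were lower in siYAP than in siNT cells, none was higher, and OIP5, CENPL, CENPP and MIS12 were not called (edgeR quasi-likelihood test, adjusted p under 0.05). Over all tested genes 33.4% were called lower and 33.8% higher in this comparison. The median log2 fold change was -0.92 over the 36 genes and 0.02 over all tested genes. In 14 of the 36 the fall was called and exceeded 2-fold, against 8.97% of all tested genes. In the same 32 genes every siYAP library was below every siNT library, against 34.7% of all tested genes. The 36 genes together took 0.161 to 0.164% of the counts in siYAP libraries, 0.258 to 0.262% in siTAZ libraries and 0.284 to 0.291% in siNT libraries. The 3 groups did not overlap in this share.

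**Figure D1:**
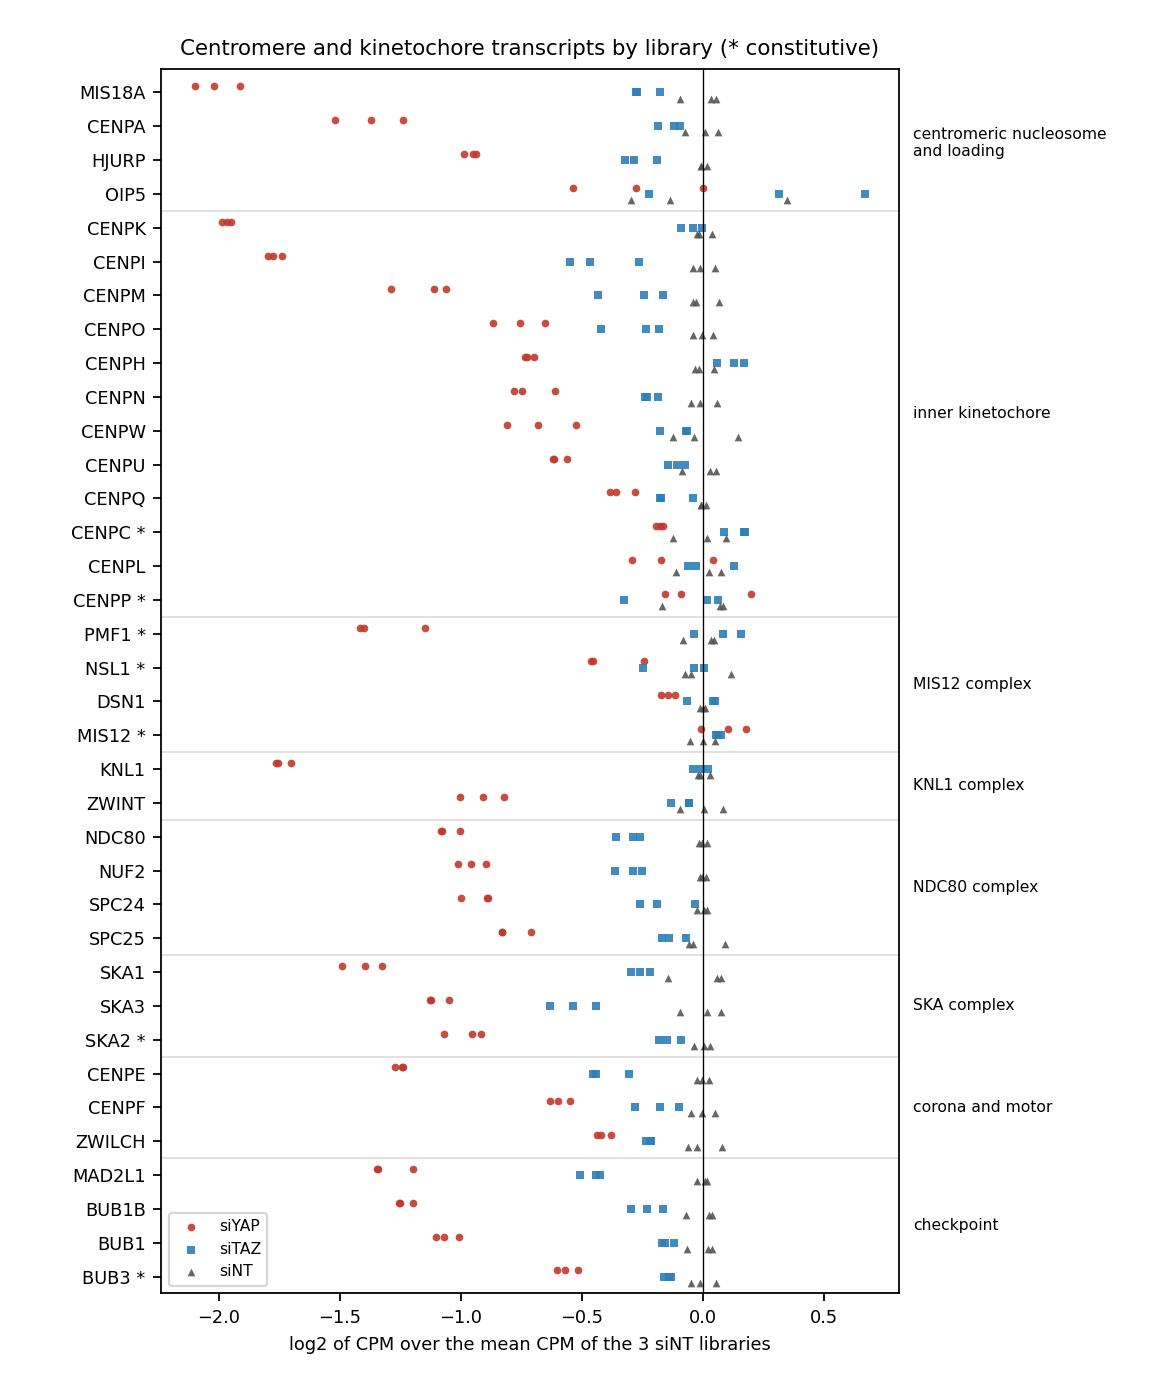
Level of each of the 36 genes in each of the 9 libraries, as log2 of CPM over the mean CPM of the 3 siNT libraries; points are single libraries, rows are grouped by complex, and an asterisk marks the 7 constitutive genes. The siYAP points lie left of the siNT points in 32 rows, and all siTAZ points lie left of the siNT points in 22 rows.

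Among the genes for the centromeric nucleosome and its loading, 3 of 4 fell after YAP knockdown, against 33.4% of all tested genes. MIS18A, a subunit of the complex that licenses centromeres for new CENP-A (ENSG00000159055; GRCh38 chr21:32268219-32279069, minus strand), was at 10.4, 11.2 and 9.81 CPM in siYAP libraries, 34.9, 34.7 and 37.3 CPM in siTAZ libraries and 39.4, 43.1 and 43.8 CPM in siNT libraries. The siYAP libraries were far below the other 6, and the siTAZ libraries lay just below the siNT libraries. Its log2 fold change of -2.01 ± 0.09 (SE, edgeR adjusted p = 9.68e-30), a 4.02-fold fall, was the largest of the 36 in siYAP against siNT, while in siTAZ against siNT it was -0.24 ± 0.08 (edgeR adjusted p = 0.011). The siTAZ call was lost without siNT replicate 2 or 3 (edgeR adjusted p = 0.0504 and 0.063). HJURP, the chaperone that deposits CENP-A, had 60.7, 60.2 and 58.6 CPM in siYAP libraries, 93.2, 95.7 and 102 CPM in siTAZ libraries and 116, 118 and 116 CPM in siNT libraries. The groups of HJURP values stood in 3 separate steps, with log2 fold changes of -0.96 ± 0.05 in siYAP and -0.26 ± 0.05 in siTAZ against siNT. CENPA itself, the histone variant, fell by 1.37 ± 0.08 on the log2 scale in siYAP cells (edgeR adjusted p = 5.31e-23) and differed by -0.13 in siTAZ cells (edgeR adjusted p = 0.185).

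OIP5, which encodes the other MIS18 subunit, was the exception in this set. It had 1.92, 2.30 and 2.78 CPM in siYAP libraries, 2.38, 4.42 and 3.46 CPM in siTAZ libraries and 3.54, 2.53 and 2.26 CPM in siNT libraries. All 3 groups overlapped, and the log2 fold change of -0.26 ± 0.27 in siYAP against siNT (edgeR adjusted p = 0.412) had the widest error of the 36 genes. Its low counts limit what could be seen in it. Of OIP5's exon bases 38.0% are shared with the antisense gene OIP5-AS1 in GENCODE 29. The sources used here do not say whether the counting used strand, so reads of the pair may not be told apart and the OIP5 level is uncertain.

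In the inner kinetochore 10 of 12 genes fell after YAP knockdown, against 33.4% of all tested genes. The fall was largest in CENPK and CENPI, subunits that sit beside CENP-H in the same subcomplex. CENPK (ENSG00000123219; GRCh38 chr5:65517766-65563171, minus strand) was at 25.3, 25.1 and 24.7 CPM in siYAP libraries, 95.3, 92.0 and 97.7 CPM in siTAZ libraries and 97.0, 100.7 and 96.3 CPM in siNT libraries. The siTAZ and siNT libraries overlapped, and the siYAP libraries were well below both, by 3.91-fold against siNT. The log2 fold change was -1.97 ± 0.06 in siYAP (edgeR adjusted p = 6.53e-39) and -0.04 ± 0.05 in siTAZ (edgeR adjusted p = 0.551). CENPI was at 21.9, 22.7 and 22.2 CPM in siYAP libraries, 63.3, 55.04 and 51.9 CPM in siTAZ libraries and 78.7, 75.3 and 73.8 CPM in siNT libraries. For CENPI both knockdowns were below siNT with no overlap, by -1.77 ± 0.07 in siYAP and by -0.42 ± 0.06 in siTAZ on the log2 scale (edgeR adjusted p = 2.19e-32 and 1.67e-07). CENPH, their direct partner, fell by 0.72 in siYAP and was at 0.12 above siNT in siTAZ on the log2 scale, which was not called (edgeR adjusted p = 0.189).

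The other inner kinetochore genes fell less. CENPM, CENPN, CENPO, CENPU and CENPW had log2 fold changes between -1.15 and -0.60 in siYAP against siNT, and CENPQ had -0.34 (edgeR adjusted p = 0.00023). CENPL had -0.13 and was not called (edgeR adjusted p = 0.169). CENPC, the protein that links CENP-A nucleosomes to the MIS12 complex, had 31.0, 31.3 and 31.6 CPM in siYAP libraries, 40.0, 37.6 and 39.9 CPM in siTAZ libraries and 32.5, 37.9 and 35.8 CPM in siNT libraries. Its siYAP libraries were below all siNT libraries by a small margin, at a log2 fold change of -0.18 ± 0.08 (edgeR adjusted p = 0.0343), a call that was lost with upper-quartile scaling (edgeR adjusted p = 0.0849) and without siNT replicate 2 or 3 or any of the siYAP replicates (edgeR adjusted p = 0.0519 to 0.156). CENPP had 9.68, 9.24 and 11.8 CPM in siYAP libraries, 8.23, 10.8 and 10.4 CPM in siTAZ libraries and 10.9, 10.8 and 9.17 CPM in siNT libraries, and its groups overlapped throughout. CENPP shares 38.0% of its exon bases with IPPK, CENPO 27% with ADCY3, CENPN 12.8% with CMC2 and CENPU 11.7% with PRIMPOL, so their counts carry the same uncertainty as those of OIP5.

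CENPK was one of 5 of the 36 genes whose longest annotated 3′ UTR holds the 7-base word TGGATAA, and the only one with 3 copies. The word was not picked from the kinetochore genes: it came from an earlier look at all genes that fell after YAP knockdown, so its excess among fallen genes is no independent finding. It occurs in the 3′ UTR of 13.04% of 13301 tested genes, in 16.6% of those called lower and in 10.8% of those called higher in siYAP against siNT. Of the 36 genes 13.9% hold it, close to the share of all genes, and 3 or more copies occur in 0.429% of tested genes. The 3 sites of CENPK are shown because this transcript had the second largest fall and was not called in siTAZ cells; capitals mark the word, the sequence is read on the gene's strand (minus) of GRCh38, and a match of letters is a description and no binding site.
CENPK chr5:65518389-65518415: caggactattTGGATAAaaaacattat
CENPK chr5:65518251-65518277: ttaaactataTGGATAAgaatgcaggt
CENPK chr5:65517923-65517949: gaaaaactaaTGGATAAagctagcata
The other holders were SKA1 and ZWILCH with 2 copies each and MAD2L1 and SKA2 with 1 each. All 5 holders were called lower in siYAP than in siNT cells, as were 32 of all 36 genes and 33.4% of all tested genes. Without them 27 of the remaining 31 were lower, a count that follows from dropping them and says nothing about the word.

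The MIS12 complex, which joins the inner to the outer kinetochore, had subunits that differed widely in their fold changes. PMF1 (ENSG00000160783; GRCh38 chr1:156212993-156240042, plus strand), placed in the constitutive class, had 18.2, 18.4 and 21.9 CPM in siYAP libraries, 54.2, 47.5 and 51.5 CPM in siTAZ libraries and 50.2, 45.9 and 49.7 CPM in siNT libraries. The siYAP libraries stood alone, at a log2 fold change of -1.32 ± 0.08 (edgeR adjusted p = 2.32e-23), and the siTAZ and siNT libraries overlapped. NSL1 had 29.9, 25.8 and 25.9 CPM in siYAP libraries, 34.6, 29.9 and 35.6 CPM in siTAZ libraries and 38.4, 34.3 and 33.7 CPM in siNT libraries, which gave a fall of 0.38 in siYAP on the log2 scale (edgeR adjusted p = 4.87e-05). DSN1 fell by 0.14 in siYAP (edgeR adjusted p = 0.00634). MIS12, which names the complex, had 44.8, 42.5 and 39.4 CPM in siYAP libraries, 41.8, 41.2 and 41.4 CPM in siTAZ libraries and 41.0, 39.6 and 38.2 CPM in siNT libraries, and was not called in any comparison, so subunits of 1 complex spanned log2 fold changes from -1.32 to 0.09 in siYAP against siNT.

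In the KNL1 complex both genes fell after YAP knockdown, against 33.4% of all tested genes. KNL1 (ENSG00000137812; GRCh38 chr15:40594020-40664342, plus strand), the scaffold that recruits BUB1 and BUBR1, was at 45.1, 43.5 and 43.2 CPM in siYAP libraries, 149, 143 and 146 CPM in siTAZ libraries and 145, 150.0 and 146 CPM in siNT libraries. The siTAZ and siNT libraries overlapped, and the log2 fold changes were -1.74 ± 0.05 in siYAP (edgeR adjusted p = 9.42e-41) and -0.01 ± 0.04 in siTAZ (edgeR adjusted p = 0.902). ZWINT, a partner of KNL1, had 59.2, 62.9 and 55.5 CPM in siYAP libraries, 107, 107 and 102 CPM in siTAZ libraries and 104, 118 and 112 CPM in siNT libraries. It fell by 0.91 in siYAP on the log2 scale (edgeR adjusted p = 9.01e-24) and was not called in siTAZ (-0.08, edgeR adjusted p = 0.221).

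In the NDC80 complex, the main microtubule coupler, 4 of 4 genes fell after YAP knockdown and 2 of 4, NDC80 and NUF2, after TAZ knockdown. The shares of all tested genes called lower were 33.4% in siYAP and 18.2% in siTAZ against siNT. The subunits NDC80, NUF2, SPC24 and SPC25 had log2 fold changes between -1.05 and -0.79 in siYAP against siNT and between -0.30 and -0.12 in siTAZ against siNT. NDC80 had 68.8, 72.6 and 69.1 CPM in siYAP libraries, 119, 114 and 122 CPM in siTAZ libraries and 144, 148 and 145 CPM in siNT libraries, again 3 separate steps. SPC25 had 11.8, 11.8 and 12.8 CPM in siYAP libraries, 19.1, 20.0 and 18.7 CPM in siTAZ libraries and 20.4, 20.2 and 22.4 CPM in siNT libraries, so its siTAZ libraries lay just below its siNT libraries, and the difference was called in siYAP (edgeR adjusted p = 1.15e-09) and not in siTAZ (edgeR adjusted p = 0.362). Per kilobase of all annotated exons, mean RNA levels in siNT cells were 40.4 CPM for NDC80, 20.9 for NUF2, 14.7 for SPC24 and 11.4 for SPC25. Which of these exons the cells use was not examined, so the levels compare only roughly between genes. Protein was not measured.

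The SKA complex, which helps NDC80 hold depolymerising microtubule ends, fell after both knockdowns, with 3 of 3 genes called in each. Of all tested genes, 33.4% were called lower in siYAP and 18.2% in siTAZ against siNT. SKA1 had 23.0, 24.2 and 21.6 CPM in siYAP libraries, 49.4, 50.7 and 52.2 CPM in siTAZ libraries and 63.2, 63.9 and 54.9 CPM in siNT libraries. SKA2, of the constitutive class, had 84.8, 87.1 and 78.3 CPM in siYAP libraries, 145, 148 and 154 CPM in siTAZ libraries and 160.5, 168 and 165 CPM in siNT libraries. SKA3 (ENSG00000165480; GRCh38 chr13:21153595-21176602, minus strand) had 35.7, 33.9 and 33.8 CPM in siYAP libraries, 50.9, 47.7 and 54.4 CPM in siTAZ libraries and 74.7, 77.7 and 69.1 CPM in siNT libraries. In none of the 3 genes did siYAP, siTAZ and siNT libraries overlap. Every siYAP library was below every siNT library in 34.7% of all tested genes, and every siTAZ library in 22.8%. Every siTAZ library was above every siYAP library in 33.7%. SKA3 had the largest fall of the 36 genes in siTAZ against siNT, at -0.53 ± 0.06 on the log2 scale (edgeR adjusted p = 1.33e-10), a 1.45-fold fall. The call of SKA2 in siTAZ, at -0.14, was lost without siNT replicate 2 or siTAZ replicate 1 (edgeR adjusted p = 0.0505 and 0.0552).

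**Figure D2:**
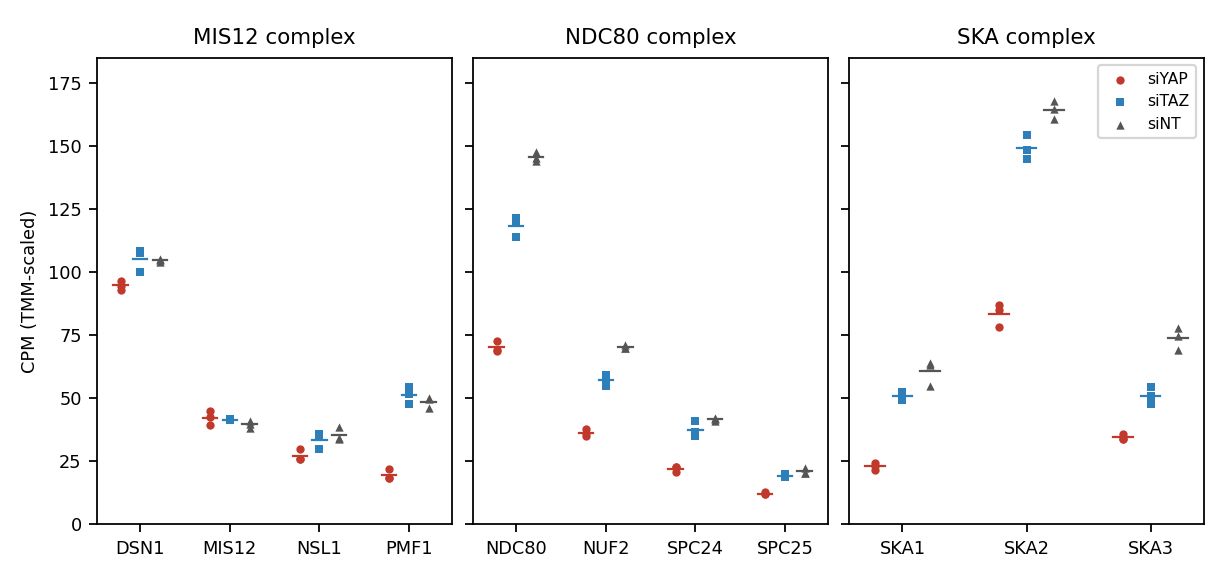
TMM-scaled CPM of each subunit of the MIS12, NDC80 and SKA complexes in siYAP, siTAZ and siNT cells; points are single libraries and bars the mean of 3, and levels are not corrected for length, so only the groups within a gene compare. All NDC80 and SKA subunits have siYAP points below the other groups, while in the MIS12 complex PMF1 does and MIS12 does not.

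Among the corona and motor genes 3 of 3 fell after both knockdowns, against 33.4% of all tested genes in siYAP and 18.2% in siTAZ. CENPE, the kinesin that carries chromosomes to the spindle equator, had 59.8, 59.7 and 58.5 CPM in siYAP libraries, 114.5, 103 and 104 CPM in siTAZ libraries and 139, 144 and 141 CPM in siNT libraries. CENPF, a large microtubule-binding protein of G2 and M phase, had 192, 186 and 182 CPM in siYAP libraries, 263, 249 and 232 CPM in siTAZ libraries and 291, 281 and 272 CPM in siNT libraries. ZWILCH, a subunit of the RZZ complex of the corona, had 63.0, 62.4 and 65.0 CPM in siYAP libraries, 71.7, 72.8 and 72.6 CPM in siTAZ libraries and 83.1, 81.0 and 89.3 CPM in siNT libraries. All 3 genes kept the order siYAP, siTAZ, siNT from low to high without overlap. Of all tested genes, 34.7% had every siYAP library below every siNT library, and 22.8% had every siTAZ library below. Their log2 fold changes, for CENPE, CENPF and ZWILCH in turn, were -1.25, -0.59 and -0.41 in siYAP against siNT. In siTAZ against siNT they were -0.40, -0.18 and -0.22.

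The 4 checkpoint genes fell after both knockdowns, against 33.4% of all tested genes in siYAP and 18.2% in siTAZ. MAD2L1, which encodes the MAD2 inhibitor of the anaphase-promoting complex, had 39.4, 43.7 and 39.5 CPM in siYAP libraries, 73.9, 74.8 and 70.5 CPM in siTAZ libraries and 98.5, 101 and 101 CPM in siNT libraries. Its log2 fold changes were -1.29 ± 0.06 in siYAP and -0.46 ± 0.05 in siTAZ (edgeR adjusted p = 4.96e-30 and 1.7e-10). BUB3, a constitutive partner of BUB1 and BUBR1, had 137, 140.1 and 145 CPM in siYAP libraries, 186, 189 and 190 CPM in siTAZ libraries and 201, 206 and 216 CPM in siNT libraries. The log2 fold change in siYAP against siNT was -0.56 for BUB3, -1.06 for the kinase BUB1 and -1.23 for BUB1B, which encodes BUBR1.

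The 27 cell-cycle-regulated genes and the 7 constitutive genes were then set side by side. Over all tested genes 33.4% were called lower in siYAP than in siNT cells, with a median log2 fold change of 0.02. In siYAP against siNT, 25 of 27 cell-cycle-regulated genes were called lower, with a median log2 fold change of -0.96 and a range from -2.01 to -0.13. Of the 7 constitutive genes 5 were called lower, with a median of -0.38 and a range from -1.32 to 0.09. The ranges overlapped widely: PMF1 and SKA2 of the constitutive class fell more than the cell-cycle-regulated median, while OIP5, CENPL and DSN1 of the cell-cycle-regulated class had log2 fold changes between -0.26 and -0.13. CENPO and CENPQ, in neither class, were both lower, and counted as constitutive they left the constitutive median at -0.38. In the 3 siYAP libraries against the siNT mean, the medians were -1.01, -0.96 and -1.003 for the cell-cycle-regulated genes and -0.24, -0.46 and -0.45 for the constitutive genes, so the constitutive median of siYAP replicate 1 stood apart from the other two. Genes are not replicates, and the difference between the classes was not tested.

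**Figure D3:**
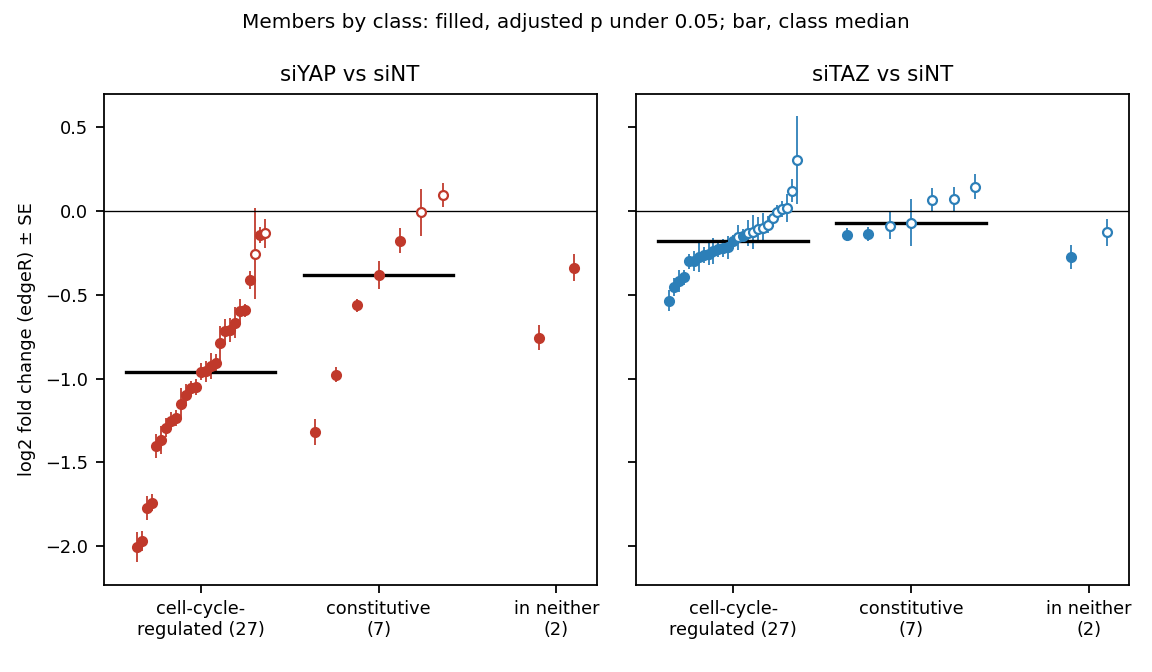
Log2 fold change with its standard error for each of the 36 genes, in siYAP against siNT (left) and siTAZ against siNT (right), by class; filled points have an adjusted p under 0.05 and bars are class medians. The cell-cycle-regulated median is -0.96 in siYAP and -0.18 in siTAZ, and the constitutive median is -0.38 in siYAP and -0.07 in siTAZ.

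Knockdown of TAZ gave smaller falls in fewer genes. Of the 36 genes 18 were called lower in siTAZ than in siNT cells and none higher, where 18.2% of all tested genes were called lower and 16.4% higher. The median log2 fold change was -0.14 over the 36 genes and 0.01 over all tested genes, and none of the 36 changed by more than 2-fold, against 1.20% of all tested genes called higher and 1.77% called lower by that much. In 22 genes every siTAZ library was below every siNT library, against 22.8% of all tested genes, and in CENPH and MIS12 every siTAZ library was above, against 21.8%. By class, 15 of 27 cell-cycle-regulated genes fell, with a median of -0.18, and 2 of 7 constitutive genes, BUB3 and SKA2, with a median of -0.07, which turned to 0.02 without siTAZ replicate 1. By assembly, all 10 genes of the SKA, corona and motor, and checkpoint sets were called lower, as were 4 of 12 inner kinetochore genes, 2 of 4 loading genes, 2 of 4 NDC80 subunits and none of the 6 genes of the MIS12 and KNL1 complexes. The siYAP and siTAZ comparisons share the siNT libraries.

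Set directly against each other, siTAZ cells had higher levels than siYAP cells in 32 of the 36 genes and lower levels in none, where 33.0% of all tested genes were called higher and 33.2% lower. OIP5, CENPL, CENPP and MIS12 were not called, and OIP5 came nearest (log2 difference 0.56 ± 0.27, edgeR adjusted p = 0.0594). OIP5 was called without siYAP replicate 3 or siTAZ replicate 1 (edgeR adjusted p = 0.0401 and 0.0133) and CENPL without siYAP replicate 2 (edgeR adjusted p = 0.0186), while the call of CENPQ was lost without siYAP replicate 3 or siTAZ replicate 1 (edgeR adjusted p = 0.0633 and 0.0993). In 31 genes every siTAZ library was above every siYAP library, against 33.7% of all tested genes; NSL1 was called with overlapping groups. The median log2 difference was 0.68 over the 36 genes and -0.01 over all tested genes. It was largest in CENPK at 1.92, MIS18A at 1.77 and KNL1 at 1.73, and smallest among the called genes in DSN1 at 0.15.

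Proliferation genes, taken as a sum, differed between the groups in the same order. The summed level of 12 replication and proliferation genes (MCM2 to MCM7, PCNA, MKI67, TOP2A, CDK1, CCNB1 and CCNA2) was 2732 to 2865 CPM in siYAP, 4234 to 4286 CPM in siTAZ and 4514 to 4670 CPM in siNT libraries. All 12 were called lower in siYAP than in siNT cells. In siTAZ against siNT 6 were called lower, 1 (PCNA) higher and 5 were not called. By mean level MCM2 and PCNA departed from the order of the sum. MCM2 averaged 207 CPM in siYAP, 196 CPM in siTAZ and 246 CPM in siNT cells, and PCNA 356, 473 and 433 CPM. CDKN1A, the p21 inhibitor of cyclin-dependent kinases, averaged 1067 ± 59.6 CPM in siYAP, 157 ± 11.97 CPM in siTAZ and 53.0 ± 2.49 CPM in siNT cells (SD, n = 3 each), with log2 fold changes against siNT of 4.33 in siYAP and 1.57 in siTAZ (edgeR adjusted p = 2.81e-30 and 5.51e-19). CDKN1A, CDKN2B and MDM2 were higher and CDKN2A was lower in siYAP than in siNT cells. In siTAZ against siNT, CDKN1A and MDM2 were higher and CDKN2B and CDKN2A lower. Of all tested genes, 33.8% were called higher and 33.4% lower in siYAP, and 16.4% higher and 18.2% lower in siTAZ. The part of these differences in the kinetochore transcripts was not tested. In bulk RNA, fewer cells in S, G2 and M phase and less RNA per cycling cell cannot be told apart.

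Other genes of the same machinery, 31 that were not among the 36, were read from lists of the pathway. In siYAP against siNT 23 of 31 were called lower and 2 higher, against 33.4% and 33.8% of all tested genes. The median log2 fold change was -0.71, against 0.02 over all tested genes. All 7 genes of the chromosomal passenger complex and of cohesion protection were lower, with the smallest p-values in BIRC5 (survivin) at -1.97, SGO2 (shugoshin) at -1.53 and CDCA8 (borealin) at -1.52. Of 6 other checkpoint genes 5 were lower, among them CDC20, the anaphase activator that the checkpoint inhibits, at -1.76, PLK1, a mitotic kinase, at -1.68, and TRIP13, which recycles MAD2, at -1.13. Of 18 other kinetochore and centromere genes 11 were lower, with the smallest p-values in SPAG5 at -1.09, KNSTRN at -1.41 and SPDL1 at -0.95. The 2 that rose were CENPB, which binds the CENP-B box of alpha satellite DNA, at 0.34 (edgeR adjusted p = 3.75e-10), and NDEL1, a dynein regulator, at 0.13 (edgeR adjusted p = 0.0279).

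In siTAZ against siNT 20 of the 31 other genes were called lower and 1 higher, against 18.2% and 16.4% of all tested genes. Their median was -0.19, against 0.01 over all tested genes. CENPT, an inner kinetochore protein that binds NDC80 directly, was the 1 that rose, at 0.27 (edgeR adjusted p = 0.00153). In siYAP against siNT it had 0.04 (edgeR adjusted p = 0.669). CENPT shares 10.8% of its exon bases with TSNAXIP1, and PLK1 11.6% with AC008870.3, so their counts carry the same uncertainty as those of OIP5. MAD2L1BP, which helps take the checkpoint signal apart, fell by 0.48 in siTAZ on the log2 scale (edgeR adjusted p = 4.13e-05) and had 0.07 in siYAP (edgeR adjusted p = 0.533). It was lower in siTAZ than in siYAP cells by 0.55 on the log2 scale (edgeR adjusted p = 9.34e-07), so the order of the knockdowns seen in most kinetochore genes was turned round in MAD2L1BP. Of the genes called lower in siTAZ against siNT, the checkpoint genes CDC20 and TTK were at -0.34 and -0.31. The passenger genes BIRC5 and INCENP were at -0.28 and -0.24, SGO2 at -0.31, and SPAG5, KNSTRN and KIF2C at -0.26, -0.28 and -0.19.

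Promoter windows, from 250 bases before to 50 bases after the annotated start, were found for 30 of the 36 genes in RefSeq (GRCh38.p14). CENPH, KNL1, CENPL, CENPM, MIS18A and BUB3 had none. The 30 genes had 34 windows, and a match in any window of a gene counted. The CHR element was searched as TTTGAA or its variant TTCGAA on both strands. It occurred in 15 of 22 cell-cycle-regulated genes with a window (68.2%), in 1 of 6 constitutive genes (CENPC, 16.7%) and in CENPO, against 19.5% of 27305 genes with a window and 15.6% of the 11717 that were also tested. In all of these genes except HJURP and CENPC a match began 41 bases from the start or nearer. The windows below are shown to let the element be seen beside the fold changes given above: 9 are from cell-cycle-regulated genes and the last is CENPC, the 1 constitutive gene with a match. Each is read on the gene's strand, and capitals mark the CHR match, which reads TTCAAA where it lies on the opposite strand; the NDC80 window also holds a variant match (TTCGAA) next to it, left in lower case.
MAD2L1 chr4:120066807-120066836: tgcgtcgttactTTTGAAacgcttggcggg
HJURP chr2:233854629-233854658: gacgcaaatttgTTTGAAaggcccaatcag
CENPF chr1:214603215-214603244: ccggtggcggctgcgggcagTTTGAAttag
SKA1 chr18:50375066-50375095: ggcgcggcgggcggTTTGAAttttgcttac
SPC25 chr2:168890416-168890445: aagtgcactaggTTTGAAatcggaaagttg
NDC80 chr18:2571542-2571571: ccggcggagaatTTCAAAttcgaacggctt
SKA3 chr13:21176538-21176567: ccggcgccgagaTTCAAActagtggcggga
ZWINT chr10:56361273-56361302: gtcgactgtgacTTCAAAgtaatcttaggg
OIP5 chr15:41332573-41332602: gcctggcgtgtaTTCGAAaggaaggcgccg
CENPC chr4:67545576-67545605: tgtgtctccgggTTCAAAcccaggcacagg

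The first base of the match lay at 25 bases after the start in MAD2L1, 35 in SKA1 and 41 in CENPF, at 3 bases before it in NDC80, SKA3 and SPC25, and at 111 before it in HJURP and 90 in CENPC. OIP5, which was not called in any comparison, holds the variant form 2 bases after its start. Among the 22 cell-cycle-regulated genes with a window, the medians with and without the element were close. MIS18A and KNL1, at log2 fold changes of -2.01 and -1.74 in siYAP against siNT, had no window and were left out. The 15 cell-cycle-regulated genes with a match had a median log2 fold change of -0.96 in siYAP against siNT, with 14 called lower, and the 7 without one had -0.93, with 7 called lower. CENPK and CENPI, whose falls were among the largest, had no CHR match in the window. In siTAZ against siNT the medians were -0.22 with a match, with 10 called lower, and -0.16 without, with 3 called lower. Of all tested genes, 33.4% were called lower in siYAP and 18.2% in siTAZ against siNT. A missing match says only that these letters are not in this window.

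The other elements did not separate the classes in the same way. CCAAT, on either strand, occurred in 63.6% of the 22 cell-cycle-regulated and in 83.3% of the 6 constitutive genes. It occurred in 39.7% of all genes with a window and 42.7% of those tested. The 6 constitutive genes had 9 windows and the 22 cell-cycle-regulated genes had 23, so a constitutive gene had more chances of a match. The E2F words TTCCCGC or TTGGCGC occurred in 31.8% of the cell-cycle-regulated and in 33.3% of the constitutive genes, against 11% of all genes with a window and 17.3% of those tested. GGAATG, the TEAD word, occurred in 6 of the 30 genes with a window (20.0%), against 16.7% of all such genes and 15.1% of those tested. Its holders were CENPE, CENPF, CENPK, NUF2, SKA2 and CENPQ. These shares describe letters in windows and were not tested.

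**Figure D4:**
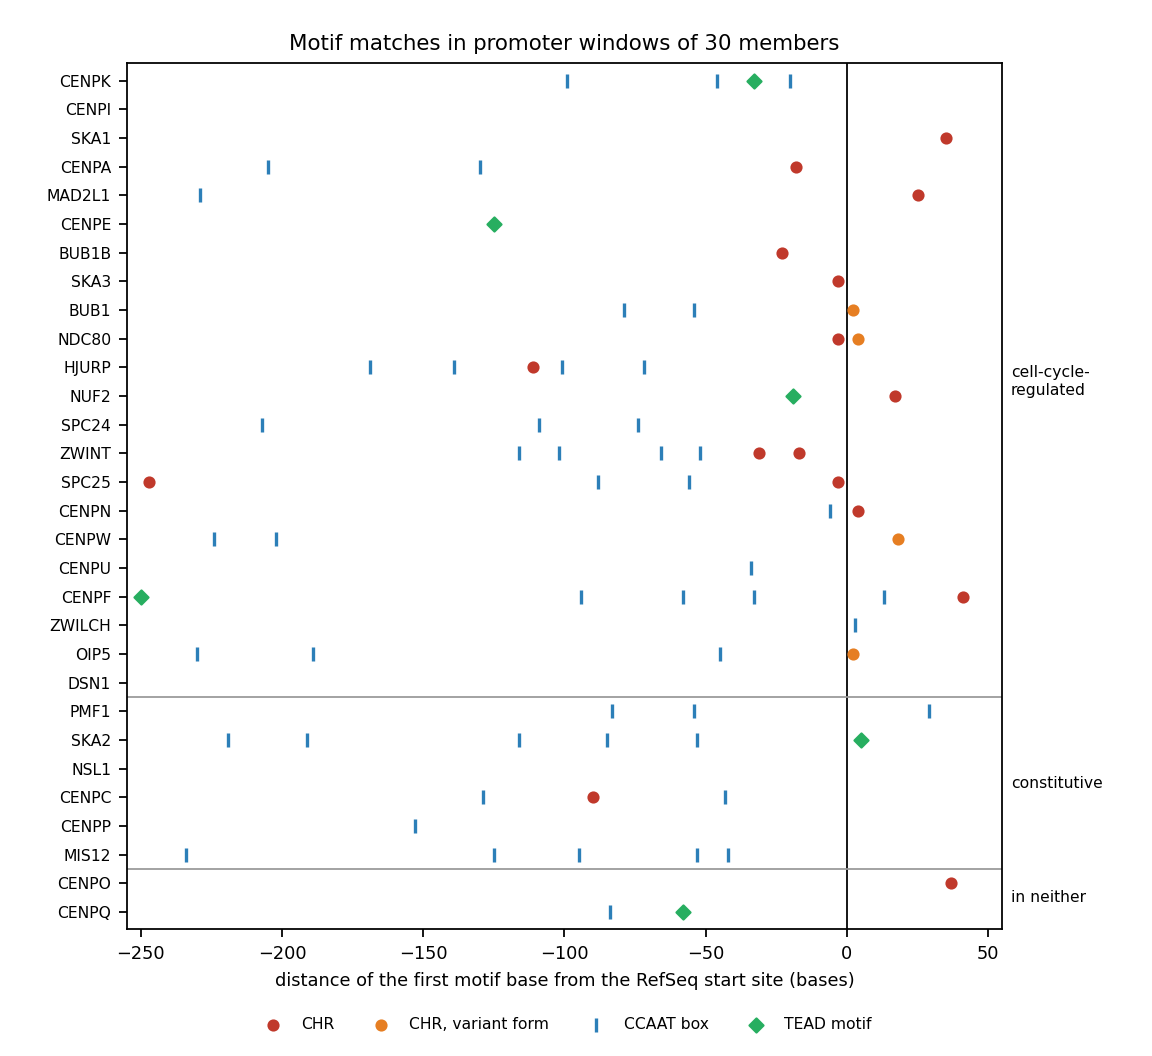
Positions of CHR, variant CHR, CCAAT and TEAD words in the promoter windows of 30 genes; the horizontal axis is the distance of the first base of each match from the annotated start in bases, and within each class genes run from the largest fall in siYAP at the top. A CHR match is present in 15 of the 22 cell-cycle-regulated rows and in 1 of the 6 constitutive rows, and the matches of HJURP and CENPC lie farthest from the start among the genes with a single match.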

How the data were processed

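RNA-seq libraries of LX2 cells were analysed from the deposited counts, whole reads per Ensembl gene in each of 9 libraries. The submitters' processing notes name STAR 2.5.0c and HTSeq, beside Trim Galore, Picard and SAMtools, with no settings; they name the mouse build mm10, although the deposited count files hold human gene IDs, so the build, annotation and strand setting of the counting are not given in the sources used here. Coordinates, exon lengths and overlaps come from GENCODE 29 on GRCh38 and promoter windows from RefSeq on GRCh38.p14. Genes were kept by filterByExpr (minimum count 10, minimum total 15), scaled by TMM and fitted over all 9 libraries in 1 model with edgeR 4.0.16 (glmQLFit, robust) in R 4.3.3; p-values are two-sided and Benjamini-Hochberg adjusted over 15560 genes, called under 0.05. The fit was tested on simulated data. DESeq2 1.42.0 and limma 3.58.1 (voom) served as alternatives. The genes, classes and lists were chosen with earlier results of these data known. Values in every library are given for the genes with the largest fall and the highest fold change of each complex, the same in siTAZ, and every constitutive gene; other pathway genes named are the 3 with the smallest p per list and direction. Shares of genes carry counting error only. Library numbers did not pair the samples: deviations from the group mean of same-numbered libraries correlated at -0.031 to 0.014. No libraries of a group were duplicates (chi-square per gene 2.52 to 5.00).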

Additional observations from a re-analysis of the deposited data

How the results depend on the processing

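The calls of the 36 genes were the same with DESeq2, limma-voom, RLE scaling, no filter on low counts and a filter of 1 CPM in 3 libraries, in all 3 comparisons. With the replicate number as a block, 32 genes were lower in siYAP and 18 in siTAZ against siNT, and 32 were higher in siTAZ against siYAP, so the block changed no call. When a change of more than 1.5-fold was required (glmTreat), the counts were 23 lower in siYAP and 0 in siTAZ against siNT, and 18 higher in siTAZ against siYAP. By that rule 1895 of all 15560 tested genes were lower in siYAP and only 227 in siTAZ against siNT. In siTAZ against siYAP 1736 of them were higher. The median of the cell-cycle-regulated genes in siYAP against siNT was -0.93 with upper-quartile scaling and -0.99 with no filter, and in siTAZ against siNT -0.16 with upper-quartile scaling. Leaving out 1 library at a time gave 31 to 32 genes lower in siYAP and 14 to 19 lower in siTAZ against siNT, and 32 to 33 higher in siTAZ against siYAP. The same gave medians of -0.99 to -0.97 for the cell-cycle-regulated genes in siYAP and -0.20 to -0.17 in siTAZ, and of -0.46 to -0.33 for the constitutive genes in siYAP and -0.12 to 0.0247 in siTAZ, where it turned positive without siTAZ replicate 1; the cause was not tested.

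Signs turned only in differences near 0 that were not called in any setting. In siYAP against siNT, CENPP was at 0.023 with upper-quartile scaling and at up to 0.06 with a library left out (0.0157 to 0.0566). In siTAZ against siNT, KNL1 was at 0.0091 with upper-quartile scaling and at 0.0056 to 0.0059 with a library left out, CENPL at -0.0441 to -0.0366, DSN1 at -0.0125 to -0.0064 and CENPP at 0.0424. In siTAZ against siYAP, CENPP was at 0.0528 to 0.0585 and MIS12 at 0.0223. In siTAZ against siNT the calls of CENPM and CENPN were lost without siNT replicate 2 (edgeR adjusted p = 0.0566 and 0.0616), that of CENPM also without siTAZ replicate 1 (edgeR adjusted p = 0.0993), and SPC24 was gained without siTAZ replicate 3 (edgeR adjusted p = 0.0335); CENPL was gained in siYAP against siNT without siYAP replicate 2 (edgeR adjusted p = 0.0275). A further pair of settings was chosen after seeing the data. Both only drop genes from the calls already made, with no new fit. Without the 5 genes that hold TGGATAA, 27 of 31 were lower in siYAP, 14 lower in siTAZ against siNT and 27 higher in siTAZ against siYAP; without the 5 that share over 10% of exon bases with another gene, the counts were 29, 16 and 29 of 31. Depth limited OIP5 most, at 36 counts in its lowest library.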
